A study of Oryza sativa with 16 samples.

Results

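The regions described here are places in the rice genome where an antibody against OsHOX24 gave a ChIP-seq summit in the over-expressing line H49, both in seedlings kept in water and in desiccated seedlings, and in no wild-type (WT) list. There were 170 such H49-only regions among 16253 regions in all, or 1.05%. A summit is the position of highest enrichment within a peak. Summits of 8 lists on chromosomes 1 to 12 were sorted by position and joined into a region wherever a summit lay up to 200 bp from the previous summit. A region was an H49-only region if it held a summit from at least 1 H49 control list and at least 1 H49 desiccation list, and none from the 4 WT lists. The members were thus chosen by the calls in these same 8 lists. The same rule with the genotypes exchanged gave 401 WT-only regions (2.47% of all regions), which serve as the mirror set.

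OsHOX24 is a transcription factor of the homeodomain-leucine zipper family (subfamily I). Proteins of this plant family bind DNA as dimers at short, AT-rich, nearly palindromic sites, and many members respond to water deficit or to the stress hormone abscisic acid. OsHOX24 itself is known as a gene that rice switches on under dehydration, so the protein can be present in WT seedlings as well as in the over-expressor.

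The 4 groups of 3-week-old seedlings each had 2 ChIP libraries: H49 control, H49 desiccation, WT control and WT desiccation. H49 carries an OsHOX24 over-expression transgene and was the transgenic line in this series; the promoter that drives the transgene is not stated in the sources. Both genotypes keep the endogenous OsHOX24 gene, so WT is a lower-dose comparison and not a background without antigen. Control seedlings stood in water, and desiccated seedlings were kept out of water between paper for 3 h. The labels do not say whether the 2 libraries of a group came from separate plants, so the spread between them may be technical.

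The lists differed in length. They held 4239 and 3389 summits in H49 control and 2340 and 2364 in H49 desiccation, against 9348 and 3176 in WT control and 2691 and 2193 in WT desiccation (replicates 1 and 2 in each case). Read numbers are not known for any list. A summit that is missing from a list was therefore not called at that depth, which does not show that the site was unbound. Because the calls themselves chose the regions, all counts below are descriptions and no test was made of H49 against WT.

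Most regions with an H49 summit in both treatments also had a WT summit. Of 1711 regions called in both H49 treatments, the 170 without any WT summit made up 9.94%. Of 2384 regions called in both WT treatments, the 401 without any H49 summit made up 16.8%. The H49-only set was thus the smaller set by either measure, with a ratio of 0.424 to the WT-only set. That order reversed when either of 2 WT libraries was left out. Leaving out a WT list loosens the H49-only rule and tightens the WT-only rule, so a move in this direction is built in. Without WT control replicate 1, the longest list, there were 348 H49-only and 110 WT-only regions. Without WT desiccation replicate 1 there were 220 H49-only and 120 WT-only regions. The order held without WT control replicate 2 (229 against 322) and without WT desiccation replicate 2 (190 against 290). With the same number of strongest summits taken from every list (2172 each), the numbers were 169 H49-only and 215 WT-only regions. In that setting without WT control replicate 1, which was added with the results known, they were 227 H49-only and 107 WT-only regions.

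**Figure D1:**
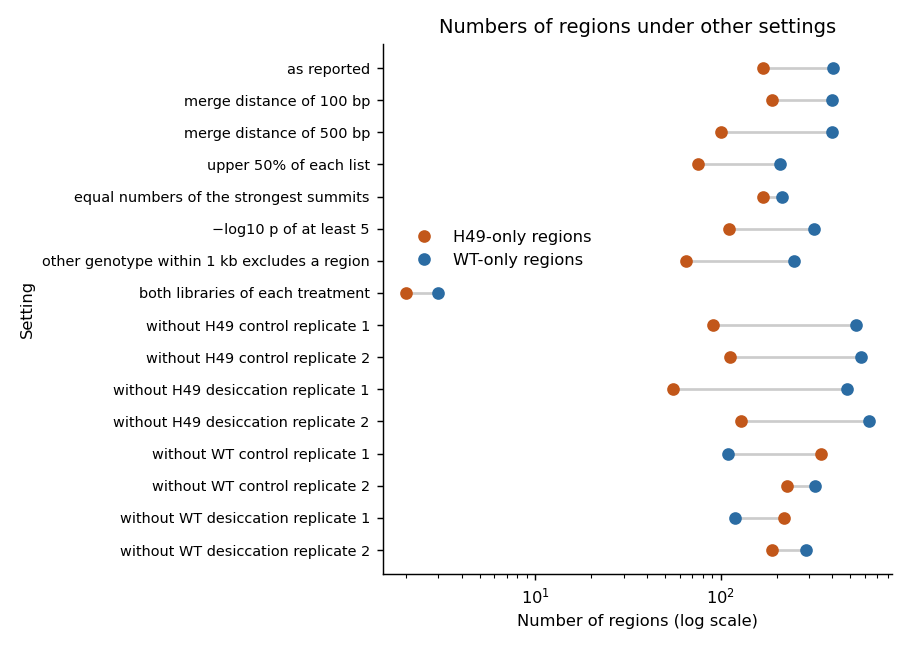
Number of regions (x axis, log scale) in the H49-only set (orange) and the WT-only set (blue) under the settings listed on the y axis, with the numbers as reported at the top. Among these settings the WT-only set was larger except without WT control replicate 1 (348 H49-only against 110 WT-only regions) and without WT desiccation replicate 1 (220 against 120).

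A further 305 regions called in both H49 treatments missed the H49-only set because of a summit from 1 WT library alone. WT control replicate 1 was that library in 180 of the 305 (59.0%). WT control replicate 2 and WT desiccation replicate 1 accounted for 53 each, and WT desiccation replicate 2 for 19. WT control replicate 1 was thus the single excluding library most often, but it was also the longest WT list. It held 9348 summits, against 3176 in WT control replicate 2 and 2691 and 2193 in WT desiccation. How far list length alone gives these counts was not tested.

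Few H49-only regions were seen in every H49 library. Of the 170 regions, 130 (76.5%) were called in 2 H49 libraries, 38 in 3 and 2 in all 4. The 40 regions called in at least 3 H49 libraries made up 23.5% of the set, while 62.2% of all regions called in both H49 treatments reached that number of libraries. The share was 4.396% (4 of 91) without H49 control replicate 1, 8.93% (10 of 112) without H49 control replicate 2 and 14.5% (8 of 55) without H49 desiccation replicate 1, where at least 3 means all 3 H49 libraries left. In the WT-only set 38 of 401 regions (9.48%) were called in at least 3 WT libraries, against 42.6% of all regions called in both WT treatments. The rule leaves out regions with a summit of the other genotype. Those recurred more often, with 1025 of 1541 (66.5%) in at least 3 H49 libraries where WT also had a summit, so the shares describe the sets and nothing more.

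The libraries took unequal parts. H49 desiccation replicate 1 called 128 of the 170 regions and H49 desiccation replicate 2 called 54. H49 control replicate 1 called 109 and H49 control replicate 2 called 91. Of the 1095 regions called in both treatments of both genotypes, H49 desiccation replicates 1 and 2 called 830 and 857. H49 control replicates 1 and 2 called 847 and 948 of those regions. The most frequent combination was H49 control replicate 1 with H49 desiccation replicate 1 (53 regions), followed by H49 control replicate 2 with H49 desiccation replicate 1 (40 regions). In the WT-only set the pair of WT control replicate 1 and WT desiccation replicate 1 alone accounted for 235 of 401 regions (58.6%). Of the 1095 regions named above, WT control replicates 1 and 2 called 901 and 884, and WT desiccation replicates 1 and 2 called 790 and 734. Leaving out H49 desiccation replicate 1 left 55 H49-only regions, and leaving out H49 control replicate 1 left 91.

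**Figure D2:**
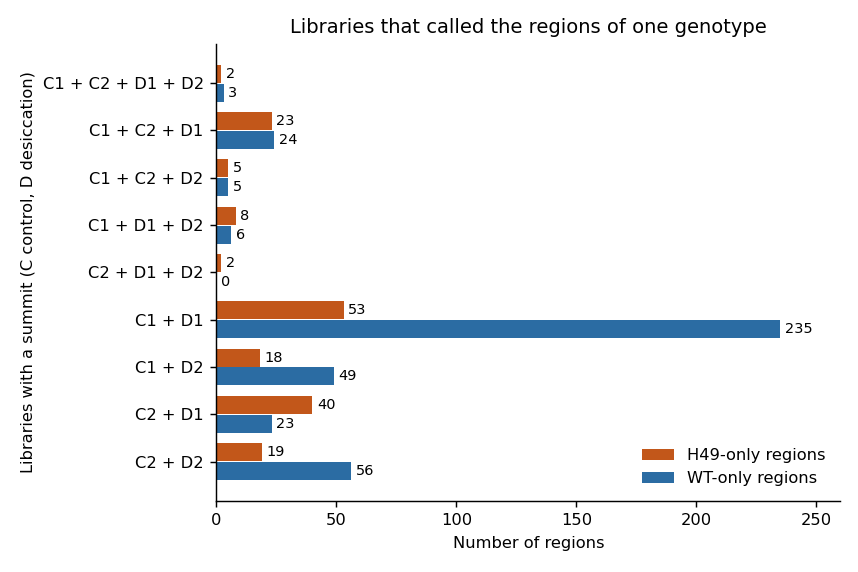
Number of regions (x axis) by the set of libraries that called them (y axis; C1 and C2 are the control replicates, D1 and D2 the desiccation replicates) in the H49-only set (orange, 170 regions) and the WT-only set (blue, 401 regions). The tallest group in both sets is C1 with D1, at 53 H49-only and 235 WT-only regions.

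Most H49-only regions lay close to a WT summit. The nearest WT summit was within 1 kb of 105 of the 170 regions (61.8%), within 500 bp of 78 (45.9%) and within 250 bp of 22 (12.9%). The median distance was 564.5 bp. In the WT-only set the nearest H49 summit was within 1 kb of 153 of 401 regions (38.2%), and the median distance was 1700 bp. H49-only regions were in this sense closer to the other genotype than WT-only regions were, in lists where WT summits outnumber H49 summits. Without WT control replicate 1 the share within 1 kb was 41.1% of 348 H49-only and 52.7% of 110 WT-only regions, which is the opposite order. Regions called in H49 control only, with no WT summit, had a share of 57.8% (1297 of 2245), and regions called in H49 desiccation only a share of 46.2% (420 of 909).

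**Figure D3:**
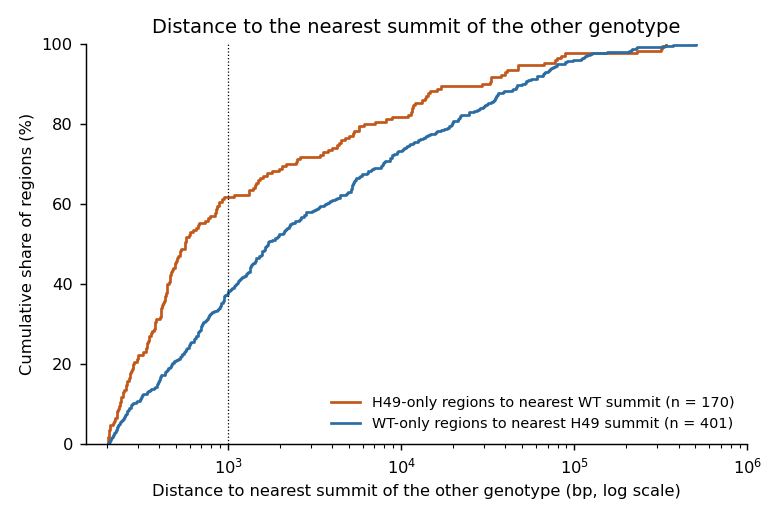
Cumulative share of regions (y axis, percent) by distance to the nearest summit of the other genotype (x axis, bp, log scale) for H49-only regions (orange) and WT-only regions (blue); the dotted line marks 1 kb. At that line the curves stand at 61.8% of H49-only and 38.2% of WT-only regions, and both start just above the merge distance of 200 bp.

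For the 105 H49-only regions within 1 kb of a WT summit, the neighbouring region was examined in each list. In 59 of them (56.2%) the neighbouring region held no H49 summit at all, so that H49 and WT each had a summit of their own a short distance apart. In 46 the neighbouring region was also called in H49, and in 31 it was called in a library that had called the H49-only region too, which puts 2 separate summits in the same list. The other 74 regions had no calling library with a summit in both places. The lists give no peak widths, so neighbouring summits of a shared broad peak and summits of separate peaks cannot be told apart. The neighbouring region was called in 1 WT library in 63 of the 105 cases (60.0%) and in at least 3 WT libraries in 17 (16.2%). The WT-only set was similar. Of its 153 regions within 1 kb of an H49 summit, the neighbouring region was called in 1 H49 library in 96 (62.7%) and in at least 3 in 24 (15.7%). It held no WT summit in 77 (50.3%). Of the 170 regions, 86 (50.6%) still had no WT summit when summits up to 500 bp apart were joined, while 309 of 401 WT-only regions (77.1%) still had no H49 summit.

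The regions next to the limit of the rule differed by few base pairs. Regions are written as the first to the last summit they hold, in positions of the rice genome MSU version 7, counted from 1. Just inside, Chr5:29016764-29016782 and Chr9:1530058-1530073 each had a WT summit at 202 bp, Chr8:6169905-6169992 at 203 bp and Chr1:16132085-16132128 at 204 bp. At Chr5:29016764-29016782 the caller's −log10 p was 8.31 in H49 control replicate 2 and 6.64 in H49 desiccation replicate 1, and the WT summit had 13.04 in WT control replicate 1. At Chr8:6169905-6169992 it was 9.99 in H49 control replicate 2 and 5.52 in H49 desiccation replicate 1, against 3.29 for the WT summit in WT desiccation replicate 2. At Chr1:16132085-16132128 it was 16.9 in H49 control replicate 2 and 7.81 in H49 desiccation replicate 2, against 20.9 in WT control replicate 1. Just outside the rule, the WT summit lay 200 bp from the nearest H49 summit at Chr4:32884535-32884798, 193 bp at Chr11:7885292-7885531, 189 bp at Chr3:5628073-5628269 and 188 bp at Chr3:30919852-30920063. The highest H49 −log10 p in these regions was 28.4, 7.22, 10.9 and 7.76 in that order. The WT summit came from WT control replicate 1 in all 4, with 36.5, 9.69, 14.3 and 8.27.

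Within their own lists, the summits of H49-only regions were of middling strength. Each summit was ranked by −log10 p within its list and expressed as a percentile, with 100 for the strongest, because the value itself grows with read number and is not comparable between libraries. The median percentile of H49-only regions was 51.6 and 45.2 in H49 control replicates 1 and 2, and 48.1 and 25.9 in H49 desiccation replicates 1 and 2, a mean of 42.7 ± 11.5 (SD, n = 4 libraries). The WT-only regions had medians of 57.6 and 63.1 in WT control and 39.5 and 31.4 in WT desiccation, a mean of 47.9 ± 14.9 (SD, n = 4 libraries). These means lie within each other's spread. Regions called in both treatments of both genotypes, of which there were 1095, had a mean of medians of 79.2 ± 5.51 in the same H49 libraries, and their lowest H49 median (72.6) stood above the highest of the H49-only regions (51.6). These regions were chosen by an unlike rule, which asks for WT summits in addition to H49 summits, while H49-only regions may hold none. How far the rules themselves set this gap was not tested.

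By construction the upper 25% of a list holds 25% of its summits. The H49-only summits in that part numbered 32 of 109 (29.4%) in H49 control replicate 1 and 18 of 91 (19.8%) in H49 control replicate 2. In H49 desiccation they numbered 15 of 128 (11.7%) in replicate 1 and 2 of 54 (3.70%) in replicate 2, both below 25%. In H49 desiccation replicate 2, 26 of the 54 (48.1%) fell in the weakest 25% of the list. The best control summit had the higher percentile in 113 of 170 H49-only regions (66.5%), with a median of 49.6 in control against 42.7 in desiccation. In the WT-only set the control percentile was the higher in 286 of 401 regions (71.3%). These percentiles refer to lists of different length, so they are no measure of binding in either treatment.

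**Figure D4:**
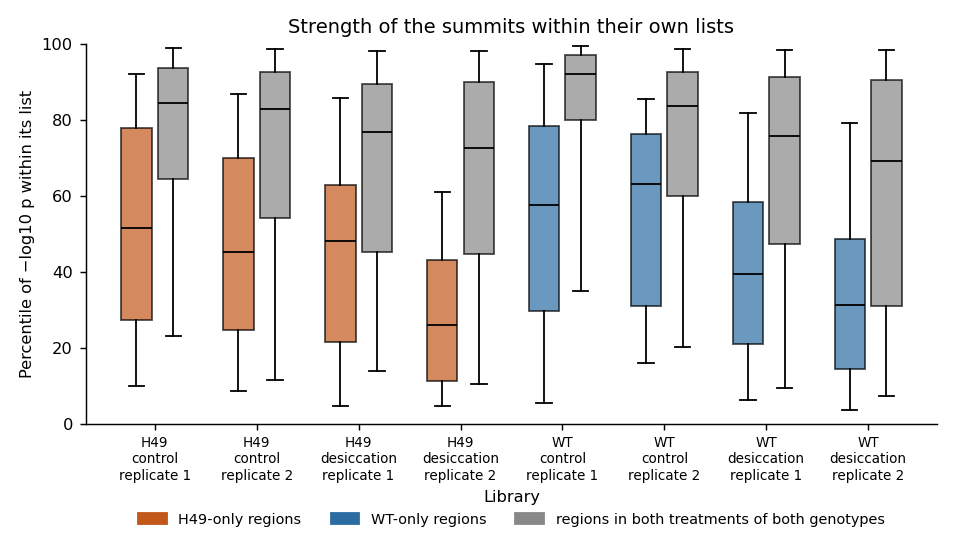
Percentile of −log10 p within the library's own list (y axis) in each of the 8 libraries (x axis) for summits of H49-only regions (orange), WT-only regions (blue) and regions called in both treatments of both genotypes (grey). Boxes span the quartiles with the median as a line, and whiskers run from the 5th to the 95th percentile of the regions. The lowest H49-only median is in H49 desiccation replicate 2 (25.9), and the grey medians in H49 libraries start at 72.6.

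Every H49 library called Chr2:27888733-27889039 and Chr4:26361237-26361371, the only regions of the set for which this was so, and neither was strong or isolated. At Chr2:27888733-27889039 the −log10 p was 5.29 and 11.3 in H49 control replicates 1 and 2 and 5.53 and 6.87 in H49 desiccation replicates 1 and 2. Its percentiles ran from 33.6 to 68.9. The region beside it, Chr2:27888338-27888482, at 251 bp, held summits of both genotypes: 3.02 and 4.38 in the H49 control libraries, against 3.89 in WT control replicate 2 and 12.002 in WT desiccation replicate 1. At Chr4:26361237-26361371 the values were 4.16 and 7.22 in H49 control and 3.52 and 4.60 in H49 desiccation, at percentiles from 4.60 to 45.2. WT control replicate 1 had a summit 303 bp away, with a −log10 p of 8.998. Both regions disappeared from the set of H49-only sites when summits within 1 kb counted against them.

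The 8 regions with the highest mean percentile among those called in at least 3 H49 libraries had the same pattern of calls. Both control libraries and desiccation replicate 1 of H49 called all 8 of them, and H49 desiccation replicate 2 called none. The first was Chr4:8234659-8234679, with 19.3 and 62.9 in H49 control replicates 1 and 2 and 18.6 in H49 desiccation replicate 1. Those values stood at percentiles 92.1, 92.0 and 85.7, and the nearest WT summit was 32591 bp away. Chr2:15453264-15453362 followed with 12.9, 56.7 and 21.0 in the same libraries (mean percentile 88.0) and a WT summit at 32791 bp.

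Chr12:13524407-13524422 had 17.4 and 32.5 in H49 control and 13.8 in H49 desiccation replicate 1, with no WT summit within 79256 bp. Chr9:1530058-1530073 had 12.8 and 43.9 in H49 control and 17.1 in H49 desiccation replicate 1. It was the exception in this group, since its neighbour at 202 bp, Chr9:1529833-1529856, held 24.1 in H49 desiccation replicate 2, against 12.99 and 27.3 in WT control and 53.9 in WT desiccation replicate 2. The H49 library missing from the region was thus called just beside it, together with 3 WT libraries. Chr12:16855586-16855657 had 10.2 and 33.5 in H49 control and 10.4 in H49 desiccation replicate 1, with a WT summit at 47409 bp.

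Spreads of −log10 p mix libraries whose values are not comparable, so percentiles are given beside them. Chr1:36214229-36214269 had the widest spread of −log10 p in this group. It had 96.3 in H49 control replicate 2 but 10.1 in H49 control replicate 1 and 8.21 in H49 desiccation replicate 1. Its percentiles in that order were 95.6, 79.2 and 68.6. Its nearest WT summit was a weak one, 4.78 in WT desiccation replicate 2, at 6108 bp. Chr1:32414331-32414366 had the smallest spread of −log10 p, with 12.8 and 10.7 in H49 control and 9.36 in H49 desiccation replicate 1 (mean 10.95 ± 1.70, SD, n = 3 libraries). Its percentiles in these libraries were 85.5, 66.8 and 74.9, and a WT summit lay at 13959 bp. By percentile Chr9:1530058-1530073 was more even, at 85.5, 89.3 and 84.8 in the same libraries. Chr8:18993069-18993127 had 8.82 and 37.0 in H49 control and 7.22 in H49 desiccation replicate 1, at percentiles 74.8, 88.0 and 61.4. It was also the farthest from WT among regions called in at least 3 H49 libraries, with the nearest WT summit at 88671 bp.

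Other isolated regions called in 3 H49 libraries had lower mean percentiles by construction, since the 8 regions above were chosen as the highest. Chr12:12296919-12296986, 77566 bp from a WT summit, had 11.6 and 7.74 in H49 control and 22.1 in H49 desiccation replicate 1, a mean percentile of 73.4. Chr5:19729678-19729762, at 40624 bp, had 4.12 and 7.18 in H49 control and 4.99 in H49 desiccation replicate 1, a mean percentile of 27.9. Of the 40 regions called in at least 3 H49 libraries, 23 (57.5%) had a WT summit within 1 kb and 9 (22.5%) had none within 10 kb, close to the shares in the whole set (61.8% and 18.2%). H49 desiccation replicate 2 lacked 23 of the 40, H49 control replicate 2 lacked 8, H49 desiccation replicate 1 lacked 5 and H49 control replicate 1 lacked 2.

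Isolated H49-only regions depended on 1 desiccation library. Of the 31 regions (18.2% of 170) with no WT summit within 10 kb, 30 were called in H49 desiccation replicate 1 and 1 in H49 desiccation replicate 2. The control libraries were more even, with 18 in H49 control replicate 1 and 22 in H49 control replicate 2. Among the 105 regions within 1 kb of a WT summit, H49 desiccation replicate 1 called 69 and H49 desiccation replicate 2 called 45. These 2 lists are nearly equal in length (2340 and 2364 summits). In the WT-only set, of the 107 regions with no H49 summit within 10 kb, WT desiccation replicates 1 and 2 called 80 and 30, close to their shares of the whole set (291 and 119 of 401).

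**Figure D5:**
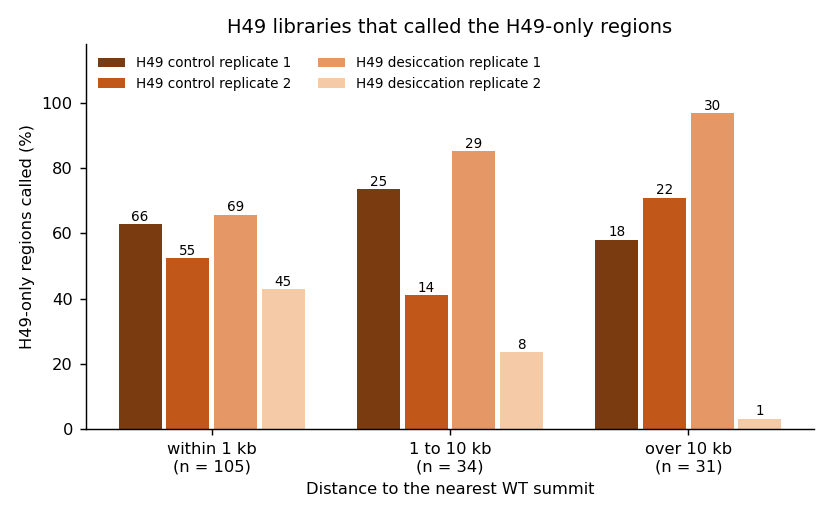
Share of H49-only regions called in each of the 4 H49 libraries (y axis, percent, with the number of regions above each bar) by distance to the nearest WT summit (x axis). In the class over 10 kb, H49 desiccation replicate 1 called 30 of 31 regions and H49 desiccation replicate 2 called 1 of 31.

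The 9 regions with no WT summit within 50 kb were all called in H49 desiccation replicate 1 and none in H49 desiccation replicate 2. Of these, 3 are given above. Chr9:6736802-6736829 was the most isolated, 337673 bp from a WT summit, with 17.2 in H49 control replicate 2 and 7.83 in H49 desiccation replicate 1. Chr5:13923711-13923749 lay 321304 bp from a WT summit, with 5.66 in H49 control replicate 2 and 6.64 in H49 desiccation replicate 1. Chr11:17945645-17945669 lay 315289 bp from a WT summit, with 5.94 in H49 control replicate 1 and 7.22 in H49 desiccation replicate 1. Chr11:11669003-11669019, at 228713 bp, was stronger, with 16.1 in H49 control replicate 1 and 12.1 in H49 desiccation replicate 1 (mean percentile 85.4). The remaining Chr6:10554898-10554946 and Chr3:29741809-29741810 were called in H49 control replicate 2 and H49 desiccation replicate 1, at values from 5.17 to 15.9. The choice of these 6 regions was made after their values were known.

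A summit in the top 25% of both a control and a desiccation list was found in 15 of the 170 H49-only regions (8.82%), and in 26 of the 401 WT-only regions (6.48%). The same share was not computed for all regions called in both H49 treatments. In single H49 libraries the top 25% held 3.70% to 29.4% of the H49-only regions called there. For regions called in both treatments of both genotypes it held 47.3% to 64.9%. Of the 15, 7 had a WT summit within 1 kb and 7 had none within 10 kb, and 14 were called in H49 desiccation replicate 1. The highest mean percentile was that of Chr12:20479759-20479832, with 22.2 in H49 control replicate 1 and 45.7 in H49 desiccation replicate 1, and a WT summit of 18.7 in WT desiccation replicate 1 at 444 bp. Chr12:20695753-20695769 had 21.4 and 33.4 in the same H49 libraries, with a WT summit of 80.5 in WT desiccation replicate 2 at 431 bp. Chr12:20582830-20582860 had 14.8 and 12.5 in those H49 libraries and a WT summit of 20.2 at 493 bp. All 3 of these chromosome 12 regions therefore lay within 500 bp of a summit in a desiccated WT library. Chr9:4706084-4706205 had 26.2 in H49 control replicate 1 and 37.5 in H49 desiccation replicate 1, with a WT summit at 1326 bp. Chr1:33583873-33584009 was the only member of the 15 called in H49 desiccation replicate 2, at 56.95, with 12.9 in H49 control replicate 1. The nearest WT summit to it, 6.06 in WT desiccation replicate 1, lay at 648 bp. That summit belonged to the WT-only region Chr1:33583153-33583225, which held 83.3 in WT control replicate 2. These 5 regions, too, were picked with their values known.

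Control and desiccation summits of the same H49-only region were not exactly aligned. The closest control and desiccation summits lay a median of 63.5 bp apart, and within 100 bp in 117 of 170 regions (68.8%). By the merge rule this distance cannot exceed 200 bp in an H49-only or WT-only region, so the share within 100 bp is partly set in advance. In the WT-only set the median was 57.0 bp, with 289 of 401 regions (72.1%) within 100 bp. In the 1095 regions called in both treatments of both genotypes the H49 summits of the treatments lay a median of 21.0 bp apart. Regions called in more libraries offer more pairs of summits, which can only shorten the distance of the closest one. Among regions called in exactly 1 control and 1 desiccation library of H49, the median was 71.0 bp in 130 H49-only regions and 38.5 bp in 262 regions called in both treatments of both genotypes. The same count for WT libraries gave closer medians, 56 bp in 363 WT-only regions and 51 bp in 332 regions called in both treatments of both genotypes. In the 8 H49-only regions of highest mean percentile among those called in at least 3 H49 libraries, the distance ran from 3 bp at Chr4:8234659-8234679 to 45 bp at Chr2:15453264-15453362.

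The H49-only regions were spread over all 12 chromosomes and their shares were not tested against those of all regions. Chromosome 1 held 37 (21.8%, against 17.7% of all regions), chromosome 2 held 25 (14.7%, against 12.9%) and chromosome 3 held 20 (11.8%, against 15.6%). Chromosome 11 held 4 (2.35%, against 2.58%) and chromosome 10 held 5 (2.94%, against 5.67%). Chromosome 12 held 9 of the H49-only regions (5.29%), against 12 WT-only regions (2.99%), 10.2% of the regions called in both treatments of both genotypes and 4.37% of all regions. The first and last 10% of the chromosomes, measured up to the highest summit position, together held 37 of the 170 (21.8%), against 24.7% of all regions.

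Most H49-only regions had no other H49-only region within 100 kb. No expected share was computed, so the counts do not show whether the regions were dispersed or clustered. Another H49-only region was within 100 kb of 23 of the 170 (13.5%) and within 10 kb of 10 (5.88%), which formed 5 pairs. The closest pair spanned Chr6:23587259-23588641. In the larger WT-only set, another WT-only region was within 10 kb of 77 of 401 (19.2%). The sets were not matched for size, and 13 of the WT-only regions formed 1 group at the end of chromosome 9. Of all 100-kb bins, 10 had a mean share of 0.5% or more of the summits of a library. These dense bins contained 5 of the 170 H49-only regions (2.94%), 8 of 401 WT-only regions (1.995%) and 4.02% of all regions. Of regions called in both treatments of both genotypes, 10.96% lay in such bins.

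The WT-only set gives the mirror of the named regions. Every WT library called 3 of the WT-only regions. At Chr2:26144043-26144138 the values were 15.3 and 15.5 in WT control and 10.4 and 11.5 in WT desiccation, but the neighbouring Chr2:26143606-26143647, at 396 bp, had 64.3 in H49 desiccation replicate 2, against 13.9 in WT control replicate 2 and 4.65 in WT desiccation replicate 1. At Chr2:5931479-5931647 the values were 29.99 and 4.23 in WT control and 4.75 and 4.17 in WT desiccation, and the neighbour at 358 bp had 19.3 and 10.1 in the H49 control libraries and no WT summit. Chr1:28523852-28524076, with 21.6 and 9.71 in WT control and 10.3 and 5.83 in WT desiccation, was isolated, with the nearest H49 summit at 21770 bp.

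Among WT-only regions called in at least 3 WT libraries, the highest mean percentile was that of Chr1:23311926-23311968 (80.7), with 11.6 in WT control replicate 1, 11.4 and 37.3 in WT desiccation and the nearest H49 summit at 87820 bp. It was followed by Chr2:26144043-26144138 (73.5), Chr2:23883933-23884167 (69.6, with an H49 summit at 1631 bp), Chr1:28523852-28524076 (66.8) and Chr4:32960327-32960462 (66.6, with an H49 summit at 281 bp). Among regions called in at least 3 H49 libraries, the 8 highest mean percentiles in the H49-only set ran from 74.7 to 89.9. Of the regions called in every library of their genotype, 2 of 2 in the H49-only set and 2 of 3 in the WT-only set had a summit of the other genotype within 1 kb.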

How the data were processed

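The data were the summit lists of 8 ChIP libraries; 8 input samples were not used here. Per the series' design text, NGS QC Toolkit filtered the reads, Bowtie2 mapped them to the rice genome MSU version 7 and MACS2 called peaks. The submitters' processing notes give MACS2 version 2.1.1.20160309. No source says whether the Bedops step or an input shaped the lists. In the deposited lists a line is a 1-bp summit with a −log10 p-value that the authors' peak caller assigned, a unit read from the MACS2 format, a lowest value of about 3 in every list and the peak names. Peak names were damaged in 2 lines, which were kept. Of 29740 summits, 29684 on chromosomes 1 to 12 were used. No pair of lists shared more than 22 identical positions.

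Regions, percentiles and distances were computed with pandas 2.3.3 in Python 3.11.15, tested on simulated lists. Members and lists were chosen with earlier results of these data known. Named regions are those called in all 4 libraries of a genotype; the 8 (WT-only: 5) of highest mean percentile and the 5 H49-only regions farthest from WT, each among regions called in at least 3 libraries; and 4 on either side of the merge limit. No genome or gene positions of this build were used, so genes and motifs were not analysed here. Alternatives changed the merge distance, the summits used, the exclusion distance and the libraries.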

Additional observations from a re-analysis of the deposited data

Results flagged for a closer look

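In the H49-only set, H49 desiccation replicate 1 stood apart from the other H49 libraries: 5.49% of its regions were H49-only regions, against 2.58% and 2.70% in H49 control replicates 1 and 2 and 2.29% in H49 desiccation replicate 2. This share is counted from the same calls that chose the members, so it only describes the set. The share of WT-only regions was likewise highest in WT desiccation replicate 1, but was not set apart: 10.9%, against 3.45% to 5.49% in the other WT libraries. Among the WT lists, WT control replicate 1 stood apart by its length of 9348 summits, against 2193 to 3176 in the others. WT desiccation replicate 2 stood apart by its median −log10 p of 19.9, against 6.10 to 7.11 in the others. These are 3 of 12 quantities examined among 4 libraries of a genotype, 6 in H49 (1 set apart) and 6 in WT (2 set apart). The limit was the 95% critical value of Dixon's test, which chance passes in about 1 in 20 groups. The unanchored sequences ChrUn and ChrSy, left out of the regions, held 56 summits, 21 from H49 and 35 from WT libraries. By the same rule they held 0 H49-only regions and 3 WT-only regions.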

How the results depend on the processing

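No paired analysis was possible because no result comes from a test. The cause of the changes was not tested. With a merge distance of 100 bp, 74.1% of H49-only regions had a WT summit within 1 kb and 52.8% of WT-only regions an H49 summit. A merge distance of 500 bp gave 100 H49-only regions, shares within 1 kb of 26.0% for H49-only and 19.75% for WT-only regions, and a ratio of H49-only to WT-only numbers of 0.25. In the upper 50% of each list there were 75 H49-only and 209 WT-only regions, with shares of 45.3% and 22.0% and, by construction, higher median percentiles of 70.6 and 72.9. Equal numbers of the strongest summits gave 215 WT-only regions, a share of 45.0% for H49-only regions, median percentiles of 56.9 (H49-only) and 68.8 (WT-only) and a ratio of 0.786. A −log10 p of at least 5 gave 111 H49-only regions at a median percentile of 58.9, and a share of 32.2% for WT-only regions. Where a summit of the other genotype within 1 kb excluded a region, 65 H49-only and 248 WT-only regions remained in the counts (ratio 0.262), with shares within 1 kb of 0 by construction and 0% of H49-only regions in dense bins. Requiring both libraries of each treatment left 2 H49-only and 3 WT-only regions (ratio 0.667), too few for shares: 100% of H49-only regions in at least 3 libraries, 100% and 66.7% within 1 kb, 0% in dense bins and a WT-only median percentile of 74.98.

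Leaving out each library in turn gave 55 to 348 H49-only and 110 to 633 WT-only regions. The share in at least 3 H49 libraries ran from 4.396% to 28.4% (with an H49 library left out, at least 3 means all 3 left), the share within 1 kb from 41.1% to 83.6% (H49-only) and from 30.5% to 52.7% (WT-only), the median percentile from 35.3 to 49.4 (H49-only) and from 45.7 to 55.6 (WT-only), and the share in dense bins from 1.79% to 4.80%. By the rule, leaving out a WT list favours a higher ratio of H49-only to WT-only numbers, and leaving out an H49 list a lower one. The ratio ran from 0.114 to 3.16 and reversed without WT control replicate 1 (3.16) and without WT desiccation replicate 1 (1.83). It also reversed without WT control replicate 1 at equal numbers of the strongest summits, a setting chosen after seeing the data: 2.12, with 107 WT-only regions, 31.7% of H49-only regions in at least 3 libraries, 41.0% within 1 kb and a median percentile of 57.9. The ratio itself was also added after seeing the data. The motif planned for the regions was not searched, since no genome of this build was used. Read depth is unknown, so no limit of detection could be given.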

Other observations

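The end of chromosome 9 held the densest group of WT-only regions: 13 of them lay in Chr9:4612-36471. WT control replicate 1 and WT desiccation replicate 2 each called all 13, WT control replicate 2 called 2, and WT desiccation replicate 1 called 0. Of the 50 regions of any kind there, H49 control replicates 1 and 2 called 0 and 21 and H49 desiccation replicates 1 and 2 called 1 and 6, against 36 and 18 in WT control and 0 and 33 in WT desiccation. The group was singled out after its values were seen. The largest group of H49-only regions at that spacing had 2 members.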
